A study of Mus musculus with 22 samples.

Results

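Core and formative pluripotency factors are described here as 10 genes, Pou5f1, Sox2, Sall4, Utf1, Fgf5, Otx2, Pou3f1, Zic2, Lin28a and Lin28b. They were chosen by gene symbol among the 18487 genes of the table, and each of the 10 symbols matched 1 gene. The RNA came from E14, a mouse embryonic stem cell (ESC) line, and was enriched for poly(A) before sequencing. There were 22 libraries in 11 groups, 2 libraries for each of 10 compounds and 2 for the reference group labelled NC, an abbreviation the labels leave unexplained. The compounds were Bromosporine, Chaetocin, CPTH2, DZNep, Garcinol, IOX1, MS023, OICR, UNC0379 and Valproate, and the labels give neither a dose nor a time. All groups share 1 cell line with no added genetic change in the labels. Nothing says that the libraries of a group came from separate cultures, so p-values measure only the spread between these libraries, which may be technical. In bulk RNA, fewer cells of a type and less RNA per cell cannot be told apart.

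Pou5f1 (also called Oct4), Sox2 and Sall4 are transcription factors of the core pluripotency network, which keeps ESCs undifferentiated and remains active as cells leave the naive state. The formative state follows the naive state in the early epiblast, and Fgf5, Otx2, Pou3f1 and Zic2 are commonly used to mark it. Utf1, Lin28a and Lin28b are found in cells of both states, and they were kept as a separate group. Among the compounds, Bromosporine binds bromodomains, DZNep blocks the hydrolase that clears S-adenosylhomocysteine and thereby acts on methyltransferases in general, and Valproate inhibits histone deacetylases. MS023 is an inhibitor of type I arginine methyltransferases. The label OICR carries no further name.

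Values are the authors' normalised read counts in whole numbers, and every library had been brought to 1 common distribution with a median of 409. Library totals ran from 38403767 to 38419709 and do not show the depth of any library, which is unknown here. Because the libraries share a set of ranked values, a highly expressed gene can have exactly the same value in several libraries and an SD of 0. The ESC genes Nanog (31970 to 123367), Zfp42 (15635 to 49540) and Esrrb (20744 to 29497) were high in all libraries.

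Utf1 was called with more compounds than any other factor. It rose with DZNep, Bromosporine, OICR and Valproate, between 2.50-fold and 3.77-fold by group means. Otx2 fell with Valproate, to 0.388 of the NC mean, and this call was sensitive to single libraries. None of the other 8 factors passed both thresholds with any compound. The core factors stayed in a narrow range, with the highest group mean at most 1.46-fold the lowest, and Fgf5 was at or near 0 in all groups.

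The change with a compound is its difference from NC, tested with limma on log2(value + 1) across all 22 libraries at once. A gene was called where the Benjamini-Hochberg adjusted p over 17275 tested genes was under 0.05 and the fold change over 2. All 10 factors passed the filter on low values. With DZNep 1 of the 10 factors was called, against 11.4% of all tested genes. With Bromosporine 1 was called, against 3.34% of genes, and with OICR 1, against 0.388%. With Valproate 2 were called, 1 up and 1 down, against 5.28%. The other 6 compounds gave 0 calls among the factors by limma, where the share of all tested genes called was 0.973% for MS023, 0.116% for IOX1, 0.0174% for Chaetocin, 0.00579% each for CPTH2 and Garcinol, and 0% for UNC0379. At an unadjusted p under 0.05, 1 factor was past with Chaetocin (Lin28a) and 1 with UNC0379 (Lin28a), and 0 with CPTH2, Garcinol, IOX1 and MS023. The share of all tested genes at that p was 4.72% with Chaetocin, 6.08% with UNC0379, 0.944% with CPTH2, 3.62% with Garcinol, 12.4% with IOX1 and 15.0% with MS023. The 10 compounds share the same 2 NC libraries, so their changes are not independent of each other.

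**Figure D1:**
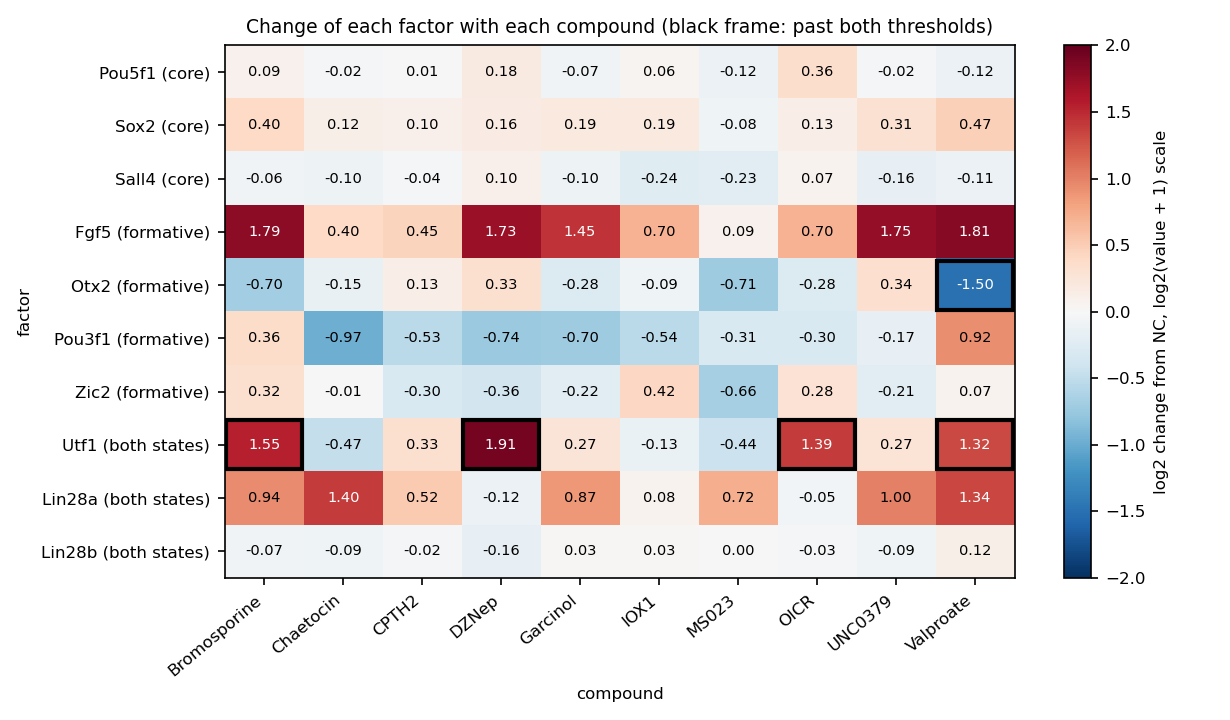
Change of each of the 10 factors (rows) with each of the 10 compounds (columns) as the difference from NC on the log2(value + 1) scale, colour and number alike; black frames mark changes past both thresholds. The 5 frames are Utf1 with Bromosporine (1.55), DZNep (1.91), OICR (1.39) and Valproate (1.32), and Otx2 with Valproate (-1.50), while the row of Fgf5 rests on values between 0 and 20.

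An F test over all 11 groups, in the same fit, asks whether a factor differed anywhere. It was past an adjusted p of 0.05 for 2 of the 10 factors, against 29.7% of all tested genes. Utf1 had an adjusted p of 4.89e-05 (limma), and its F was above that of 99.5% of the tested genes. Pou5f1 had an adjusted p of 0.0262 (limma), and OICR was its highest group. With median-ratio rescaling of the libraries the adjusted p of Pou5f1 rose above 0.05 and 1 factor, Utf1, was left. Pou5f1 also did not pass when OICR replicate 1, OICR replicate 2, MS023 replicate 1 or MS023 replicate 2 was left out. The next smallest adjusted p-values by limma were 0.0647 for Lin28a and 0.095 for Otx2.

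Utf1 encodes a chromatin-associated protein of pluripotent cells. The gene (ENSMUSG00000047751) lies on chromosome 7, 139943789 to 139945112, plus strand (GENCODE M21, mm10), and values cover all of its exons, untranslated ends included. Its level was 1283 and 1467 in the 2 NC libraries. It was 4622 and 5749 with DZNep, and 4117 and 3935 with Bromosporine. With OICR the libraries held 3309 and 3915, and with Valproate 3558 and 3309. All 8 of these libraries lay above each of the other 14. The remaining groups stayed between 823 and 1920, with 1185 and 823 for Chaetocin, 1182 and 868 for MS023, and 1541 and 1024 for IOX1. Garcinol had 1702 and 1597, CPTH2 1832 and 1617, and UNC0379 1432 and 1920. IOX1 and UNC0379 overlapped NC, Chaetocin and MS023 lay below it, Garcinol and CPTH2 lay above it, and none of the 6 was called.

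For DZNep the group mean of Utf1 was 5186 ± 797 (SD, n = 2) against 1375 ± 130 (SD, n = 2) in NC, a log2 change of 1.91 (SE 0.225, limma adjusted p 7.54e-05). Bromosporine gave 4026 ± 129 (SD, n = 2), a log2 change of 1.55 (SE 0.225, limma adjusted p 0.00174). OICR gave 3612 ± 429 (SD, n = 2), a change of 1.39 (SE 0.225, limma adjusted p 0.0142). Valproate gave 3434 ± 176 (SD, n = 2), a change of 1.32 (SE 0.225, limma adjusted p 0.0026). Both replicate numbers showed each rise, by 1.85 and 1.97 for DZNep, 1.68 and 1.42 for Bromosporine, 1.37 and 1.42 for OICR, and 1.47 and 1.17 for Valproate. In the order of group means, DZNep did not overlap Bromosporine below it and Bromosporine did not overlap OICR, whereas OICR and Valproate overlapped. The call with OICR was the least steady of the 4, since it was lost without NC replicate 1 (log2 1.29, adjusted p 0.180), without OICR replicate 1 (1.51, adjusted p 0.0520) and without OICR replicate 2 (1.27, adjusted p 0.165). When only the compound and NC libraries were fitted, the adjusted p was 0.0614 for DZNep, 0.241 for OICR and 0.0891 for Valproate, and the Bromosporine call was kept.

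The bases upstream of Utf1 and Pou5f1 are printed to show the sequence in front of the factor that changed most often beside that of the most abundant one. Promoter windows of RefSeq (GRCm38.p6, 250 bases before to 50 after a start) were at hand for 7 of the 10 factors, and Sall4, Pou3f1 and Zic2 had no entry. Only the bases before the annotated start of the gene are given, 5′ to 3′, with GGGCGG (the GC box, bound by Sp factors) in capitals on either strand.
Utf1, chr7:139943606-139943788, plus strand: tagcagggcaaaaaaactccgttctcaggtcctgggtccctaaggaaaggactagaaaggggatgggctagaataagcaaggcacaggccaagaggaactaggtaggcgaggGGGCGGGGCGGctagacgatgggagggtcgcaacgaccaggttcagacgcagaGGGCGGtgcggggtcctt
Pou5f1, chr17:35505782-35506017, plus strand: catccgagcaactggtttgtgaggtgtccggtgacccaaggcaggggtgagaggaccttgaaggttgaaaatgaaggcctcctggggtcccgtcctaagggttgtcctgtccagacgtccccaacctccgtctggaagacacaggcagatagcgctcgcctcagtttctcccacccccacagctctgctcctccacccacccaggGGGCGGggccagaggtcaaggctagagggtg
The Utf1 stretch of 183 bases holds 3 matches to GGGCGG, the first 2 of which overlap by 1 base, and the Pou5f1 stretch of 236 bases holds 1. Over the 32851 windows of 300 bases, 35.7% hold GGGCGG on either strand. CCAAT was found in 37.4% of windows and in neither printed stretch, and the POU octamer ATGCAAAT in 1.74% of windows and in none of the windows of these 7 factors. A match is a description of the letters and was not tied to any value here.

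**Figure D2:**
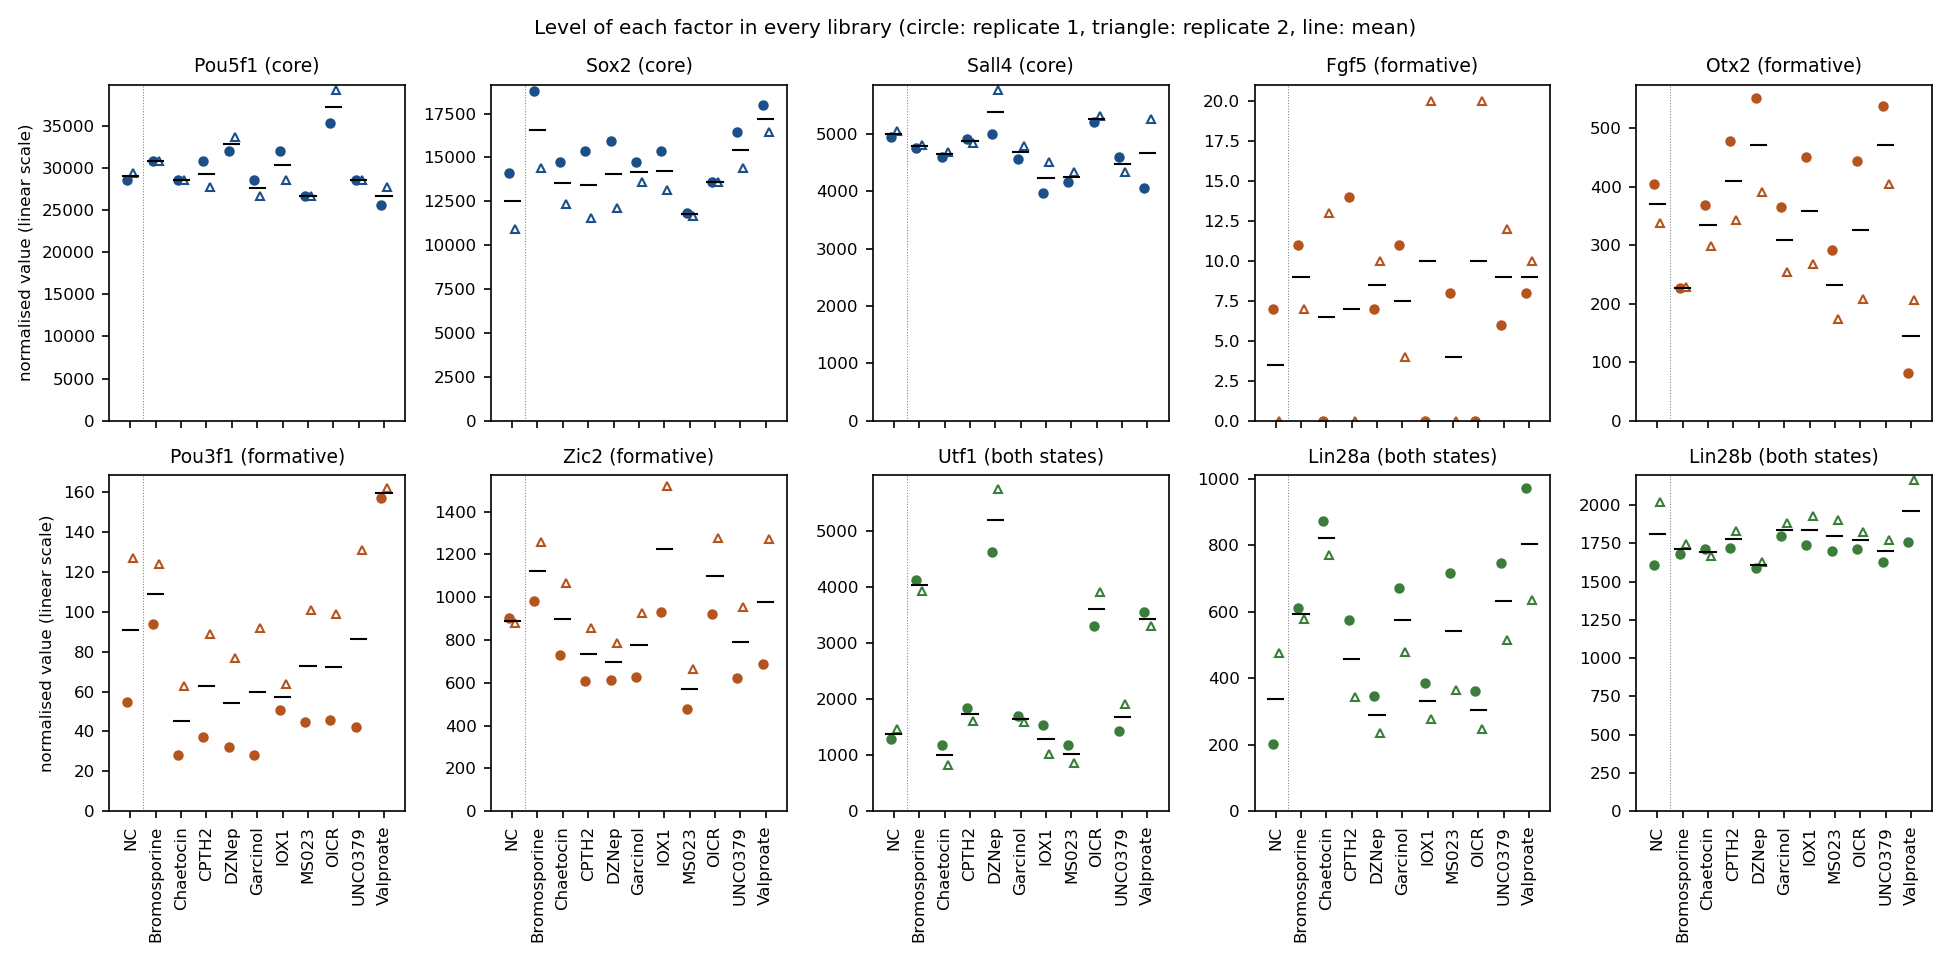
Normalised value (linear scale starting at 0) of each of the 10 factors in every library, by group on the horizontal axis; circles are replicate 1, triangles replicate 2, and lines the group mean. Utf1 reaches 3309 or more in the 8 libraries of DZNep, Bromosporine, OICR and Valproate and stays at 1920 or less in the others, while Lin28b lies between 1588 and 2167 throughout.

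The core factors were abundant and differed little between groups. Pou5f1, the POU-domain factor that defines the pluripotent state, had 28606 and 29454 in NC, above 99.1% of the genes in the table. OICR had the highest values, 35317 and 39262, and DZNep followed with 32054 and 33724. The other groups ran from 25663 to 32054, with Valproate (25663 and 27731) and MS023 (26685 in both) at the low end. OICR did not overlap DZNep, and DZNep did not overlap Bromosporine (30833 in both), while the neighbours below them in the order overlapped or touched. The largest change of Pou5f1 was the one with OICR, a log2 difference of 0.36 (SE 0.093, limma adjusted p 0.114), which did not pass. Of the 31-base stretches of the longest Pou5f1 transcript, 22.7% also occur in transcripts of other genes, 8.26% once the antisense gene Gm19553 is set aside. Whether counting used strand is not given in the sources used here, so reads of this partner and of Pou5f1 pseudogenes could be mixed into these values.

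Sox2, the partner of Pou5f1 on many enhancers, had 14112 and 10935 in NC. The highest group means were those of Valproate (17988 and 16436) and Bromosporine (18762 and 14408), and the lowest was MS023 (11842 and 11674). All libraries lay between 10935 and 18762. With Valproate the log2 difference was 0.47 (SE 0.183, limma adjusted p 0.130), with both of its libraries above both NC libraries. No pair of neighbouring groups in the order of Sox2 was separate.

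Sall4, a zinc-finger factor that acts with both of them, had the smallest ratio between groups of the core factors. NC had 4938 and 5055, and the 22 libraries ran from 3961 (IOX1 replicate 1) to 5771 (DZNep replicate 2). Its largest change was with IOX1 (3961 and 4508), a log2 difference of -0.24 (limma adjusted p 0.404). The highest group mean of Sall4 was 1.27-fold the lowest, the figure for Pou5f1 was 1.40-fold and for Sox2 1.46-fold. Among 12871 tested genes with a mean of at least 100, the median was 1.74-fold, and 5.91% of them had a smaller ratio than Sall4, 17.8% than Pou5f1 and 25.1% than Sox2. The Sall4 transcript shares 5.22% of its 31-base stretches with its antisense neighbour Gm14261.

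The formative markers lay far below the core factors. Per kilobase of the longest transcript, the NC mean was 21300 for Pou5f1, 6090 for Sox2 and 985 for Sall4. On that scale Zic2 had 365, Otx2 143, Pou3f1 23.6 and Fgf5 1.4. Utf1 stood above Sall4 with 1120, Lin28b had 336 and Lin28a 96.7.

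Otx2 encodes a homeobox factor that is needed for the passage out of the naive state. It lies on chromosome 14, 48657677 to 48673819, minus strand. Its values were 404 and 338 in NC, and 82 and 206 with Valproate. The next lowest groups were Bromosporine (226 and 228) and MS023 (291 and 174), and the highest were UNC0379 (537 and 405) and DZNep (551 and 390). Chaetocin had 369 and 299, CPTH2 478 and 342, Garcinol 365 and 254, IOX1 451 and 267, and OICR 444 and 208. Valproate was separate from Bromosporine above it, but its replicate 2 was higher than MS023 replicate 2. No other neighbours in the order were separate.

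With Valproate the mean of Otx2 was 144 ± 87.7 (SD, n = 2) against 371 ± 46.7 (SD, n = 2) in NC, a log2 change of -1.50 (SE 0.447, limma adjusted p 0.0491). The difference was -2.29 within number 1 and -0.71 within number 2. The call lay at the edge of the threshold and was lost under 7 of the 11 alternatives run for it. Without Valproate replicate 1 the change was -0.84 (adjusted p 0.380), without NC replicate 1 -1.37 (adjusted p 0.212) and without NC replicate 2 -1.63 (adjusted p 0.127). It was also lost with no filter on low values (adjusted p 0.0512), with median-ratio rescaling (0.0577) and with adjustment over all 10 contrasts together (0.106). It was kept with the replicate block (limma adjusted p 0.0158) and against the mean of the other groups (limma adjusted p 0.0108). An opposite-strand gene, Otx2os1, overlaps exons of Otx2.

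Pou3f1 (also called Oct6), a POU-domain factor of the epiblast and of neural and Schwann cells, was low. It had 55 and 127 in NC, and 157 and 162 with Valproate, the highest group and separate from Bromosporine (94 and 124) below it. The lowest group was Chaetocin (28 and 63), with a log2 difference of -0.975 (SE 0.741, limma adjusted p 0.841). With Valproate the difference was 0.92 (SE 0.741, limma adjusted p 0.485), and neither passed. The Chaetocin difference was -0.949 within number 1 and -1 within number 2. It was -0.378 without NC replicate 2 and -0.404 without Chaetocin replicate 1. Without NC replicate 1 it was -1.571, and without Chaetocin replicate 2 -1.546. Leaving out 1 library unbalances the replicate numbers, and Pou3f1 was higher in replicate 2 in all groups. Other groups ran from 28 (Garcinol replicate 1) to 131 (UNC0379 replicate 2). An antisense gene, Gm2164, overlaps Pou3f1.

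Zic2, a zinc-finger factor that binds enhancers during the exit from naive pluripotency, had 902 and 878 in NC. IOX1 was highest (930 and 1518) and MS023 lowest (475 and 666). The MS023 difference was the largest, -0.66 on the log2 scale (SE 0.355, limma adjusted p 0.426), with both libraries below both of NC. Bromosporine had 984 and 1257, OICR 923 and 1274, and Valproate 687 and 1270. No neighbours in the order were separate.

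Fgf5, a growth factor and the classical marker of the formative epiblast, was barely listed. Its values ran from 0 to 20, and 6 of the 22 libraries were at 0, namely NC replicate 2, Chaetocin replicate 1, CPTH2 replicate 2, IOX1 replicate 1, MS023 replicate 2 and OICR replicate 1. NC held 7 and 0, and the highest single values, 20 each, were in replicate 2 of IOX1 and of OICR, whose replicate 1 was at 0. Its largest fitted log2 difference, 1.815 with Valproate (8 and 10, SE 1.89, limma adjusted p 0.607), depends on the added 1 and is no measure of a fold.

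Lin28a and Lin28b encode RNA-binding proteins that block the maturation of let-7 microRNAs. Lin28a had 201 and 477 in NC. The highest groups were Chaetocin (872 and 772) and Valproate (973 and 636), followed by UNC0379 (747 and 516) and Bromosporine (611 and 578). DZNep (346 and 234) and OICR (363 and 247) had the lowest means. The log2 difference was 1.40 with Chaetocin (SE 0.433, limma adjusted p 0.803) and 1.34 with Valproate (SE 0.433, limma adjusted p 0.0672), and neither was called. The first difference was 2.11 within number 1 and 0.69 within number 2, and NC replicate 1 was the lowest of all 22 libraries. The Lin28a transcript shares 2.19% of its 31-base stretches with its opposite-strand neighbour Gm13061.

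Lin28b covered a much narrower range. NC had 1606 and 2020, and all libraries lay between 1588 (DZNep replicate 1) and 2167 (Valproate replicate 2). The highest group mean was 1.22-fold the lowest, a smaller ratio than in all but 2.88% of the 12871 genes. The largest difference was -0.16 on the log2 scale with DZNep (limma adjusted p 0.359), and without NC replicate 2 it was 0.002.

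The formative minus core level compares the groups within a library. It is the mean log2(value + 1) of Fgf5, Otx2, Pou3f1 and Zic2 minus that of Pou5f1, Sox2 and Sall4, and it was described with no test. It was -6.80 and -7.23 in the NC libraries. Relative to the NC mean it ranged from -0.254 (MS023) to 0.386 (UNC0379) over the compounds, and was 0.302 with Bromosporine, 0.249 with Valproate and 0.09 with DZNep. Libraries of 1 group differed by an SD of 0.547, and no change from NC was larger than that. Group means, each of 2 libraries, had an SD of 0.202, which is not on the same footing. Fgf5 alone had an SD of 2.03 within groups. The spread also holds any shift between the replicate numbers, and replicate 2 was higher in 8 of 11 groups. Single libraries moved these changes: with 1 library left out, UNC0379 ran from 0 to 0.773, Bromosporine from 0.088 to 0.516 and Valproate from -0.009 to 0.506. With a pseudocount of 10 the change turned for Bromosporine (-0.018), Valproate (-0.072), DZNep (-0.194) and Garcinol (-0.181). With Fgf5 left out, an alternative chosen after its values were seen, the level was -5.52 and -5.13 in NC. The mean was lower in all 10 compound groups, by -0.056 (UNC0379) to -0.415 (MS023), but all are measured from the same 2 NC libraries. IOX1 replicate 1 (-5.482) and UNC0379 replicate 2 (-5.03) lay above the NC library of the same number. The SD was 0.339 within groups and 0.154 between group means. The core mean alone had an SD of 0.069 within groups and 0.093 between group means. Its change from NC ran from -0.145 (MS023) to 0.188 (OICR).

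**Figure D3:**
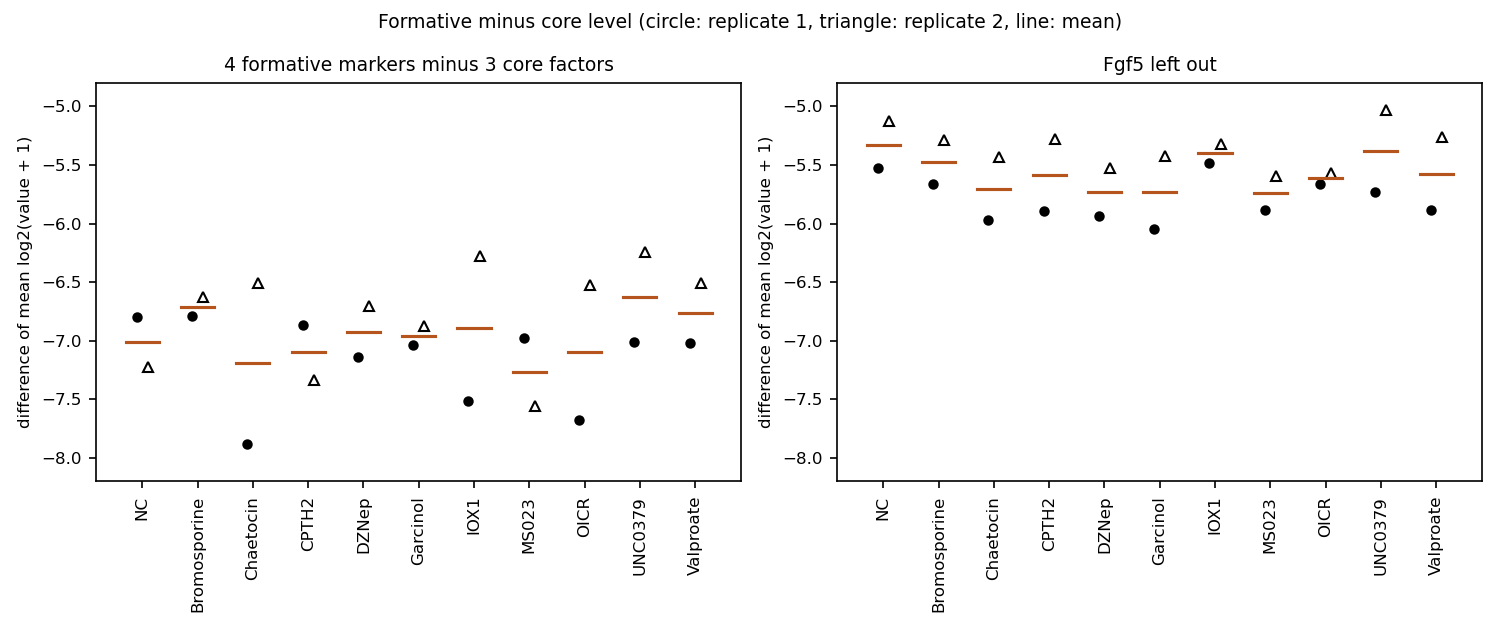
Mean log2(value + 1) of the formative markers minus that of the core factors in each library, by group, with all 4 formative markers (left) and with Fgf5 left out (right); circles are replicate 1, triangles replicate 2, and lines the group mean. On the left the groups overlap, with an SD of 0.547 within groups, and on the right replicate 2 is above replicate 1 in 11 of 11 groups.

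The replicate number moved with several factors in the same way across groups. Pou3f1 was higher in replicate 2 in 11 of 11 groups, by a mean of 1.01 on the log2 scale (SE 0.153, limma adjusted p 0.00019). Zic2 was higher in replicate 2 in 10 of 11 groups, by 0.495 (limma adjusted p 9.67e-05), and NC was the exception. Lin28b was higher in replicate 2 in 10 of 11 groups, by 0.124 (limma adjusted p 0.0122). Sox2 was higher in replicate 1 in 10 groups and tied in OICR, with a mean difference of -0.226 (limma adjusted p 0.00121). These were 4 of the 10 factors past an adjusted p of 0.05, against 52.6% of all tested genes. Lin28a was higher in replicate 1 in 10 of 11 groups, with NC as the exception, and Otx2 in 9 of 11, with Bromosporine and Valproate as the exceptions, but neither passed (limma adjusted p 0.0726 and 0.110). What the numbers stand for is not given in the labels.

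**Figure D4:**
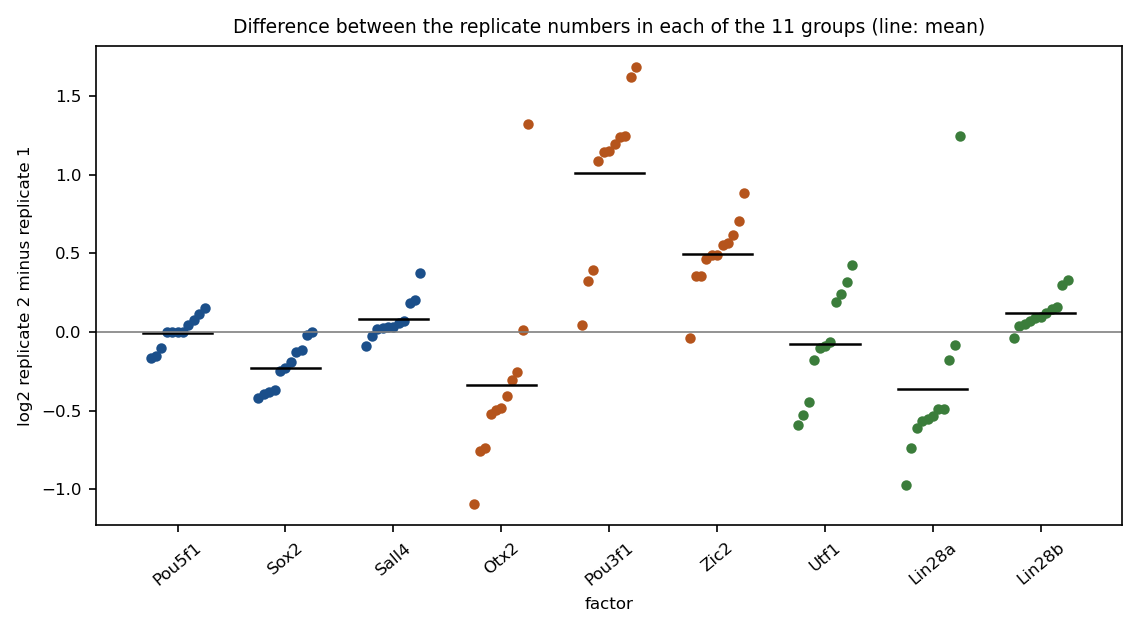
Difference between replicate 2 and replicate 1 on the log2(value + 1) scale for 9 factors (Fgf5 is left out because of its values at 0), with 1 point for each of the 11 groups and a line at their mean. All 11 points of Pou3f1 are above 0, and 10 of 11 of Zic2, whereas Pou5f1 and Utf1 scatter around 0.

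Other genes tied to these states were taken from lists written from general knowledge, but with earlier results of these data known. Counts and median log2 changes are given with no test of the list, as a description only. Of 17 other formative and primed genes, 5 rose and 2 fell with DZNep, 3 rose with Bromosporine, 3 rose and 1 fell with Valproate, and 1 rose with OICR. Of all tested genes, 5.27% rose and 6.14% fell with DZNep, 0.573% rose with Bromosporine, 2.73% rose and 2.55% fell with Valproate, and 0.127% rose with OICR. The medians of this list were 0.28, 0.45, 0.51 and 0.49 in that order, beside -0.04, 0.01, -0.02 and 0.005 over all tested genes. Foxd3, a forkhead factor of the early epiblast and neural crest, rose with 3 of the 4 compounds with which Utf1 rose. Its values were 773 and 811 in NC, 3607 and 3335 with DZNep (log2 2.13, limma adjusted p 7.52e-06), 1662 and 1850 with Bromosporine (1.15, limma adjusted p 0.00262), and 1698 and 2269 with OICR (1.31, limma adjusted p 0.0053). Dnmt3l, the catalytically inactive partner of the de novo DNA methyltransferases, had 9 and 40 in NC. It rose with DZNep to 1487 and 612, with Valproate to 442 and 536, and with Bromosporine to 160 and 311.

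Etv4, an ETS factor downstream of FGF signalling, fell with Valproate from 3169 and 4442 to 134 and 408 (log2 -4.00, limma adjusted p 0.000149). Lef1, a nuclear partner of beta-catenin, rose with Valproate from 29 and 42 to 350 and 194 (2.87, limma adjusted p 0.00066). With DZNep Fgf15, a secreted FGF, fell from 35 and 20 to 5 in both libraries (-2.20, limma adjusted p 0.00365). Pim2, a serine/threonine kinase, rose with Bromosporine from 311 and 399 to 726 and 829 (1.14, limma adjusted p 0.047).

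Of 16 naive pluripotency genes, 2 rose with DZNep, 1 rose and 1 fell with Valproate, and 0 were called by limma with the other 8 compounds. These counts stand beside 11.4% and 5.28% of all tested genes called with DZNep and Valproate, so the share with DZNep is near that of all genes. The medians with DZNep and Valproate were 0.02 and 0.09. Zfp42, a marker of naive ESCs, rose with DZNep from 16469 and 20763 to 49540 and 33822 (1.15, limma adjusted p 0.000883). Tbx3, a T-box factor, rose from 5662 and 4970 to 11776 and 10616 (1.08, limma adjusted p 0.000231). With Valproate Dppa3, which protects DNA methylation in the zygote, rose from 194 and 160 to 3544 and 2894 (4.18, limma adjusted p 0.00132), and Nr0b1, a nuclear receptor that binds Pou5f1, fell from 3737 and 3823 to 1446 and 1325 (-1.45, limma adjusted p 0.000782).

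Of 10 partners of the core factors, 1 fell with Valproate and 1 with MS023, against 2.55% and 0.585% of all tested genes that fell. Sall3, a relative of Sall4, fell with Valproate from 672 and 729 to 113 and 217 (-2.15, limma adjusted p 0.00518), where Sall4 had 4056 and 5268. Sox15, a relative of Sox2, fell with MS023 from 265 and 298 to 125 and 119 (-1.20, limma adjusted p 0.00729). Of 15 genes of let-7 maturation and let-7 targets, 2 fell with DZNep and 1 with Valproate, against 6.14% and 2.55% of all tested genes that fell, and the medians of the list were -0.07 and -0.05. Igf2bp3 fell with DZNep from 6757 and 5309 to 2907 and 1945 (-1.33, limma adjusted p 0.00115) and with Valproate to 2961 and 2687 (-1.09, limma adjusted p 0.00938). Igf2bp2 fell with DZNep from 2965 and 2488 to 1356 and 1085 (-1.16, limma adjusted p 6.73e-05). Both encode RNA-binding proteins and are let-7 targets. In the main fit neither Lin28a nor Lin28b had a called change, and Lin28a differed by 1.34 with Valproate (limma adjusted p 0.0672). A link between these genes was not tested.

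Markers of other cell types were checked beside the calls of Utf1 and Otx2. Summed over the 4 of 6 neural markers in the table, the level was 3292 and 4950 in NC, 4286 and 5119 with DZNep, 3142 and 4083 with Bromosporine, 3054 and 4241 with OICR, and 3306 and 4486 with Valproate. Sox1 had 742 and 514 in NC and fell with DZNep (225 and 204), MS023 (230 and 246) and Valproate (252 and 283), and Nes fell with DZNep from 1555 and 1613 to 715 and 543. The other neural markers were not called. Tubb3 differed in the opposite direction, by 1.23 with DZNep, 0.48 with MS023 and 0.25 with Valproate on the log2 scale, and Nes by 0.02 with Valproate. Pax6, though not called, had the largest neural fall with Valproate, -1.379. Over the 4 neural markers the median log2 change was -1.177 with DZNep, -0.59 with MS023 and -0.595 with Valproate. For the 5 of 5 primitive streak markers the sums of these 5 groups ran from 911 to 1272, for 4 of 6 endoderm markers from 193 to 654, and for 4 of 5 trophoblast markers from 204 to 923. The calls in these lists were Eomes up with Bromosporine (331 and 298, against 129 and 119 in NC) and DZNep (356 and 199), Gata4 down (35 and 61, against 156 and 154) and Dab2 up (113 and 146, against 41 and 46) with DZNep, Krt8 up with DZNep (881 and 504, against 140 and 411), and Hand1 down with Bromosporine, where it was listed at 0. Fibroblast markers (8 of 8 in the table) summed to 528 and 1397 in NC, 1613 and 1881 with DZNep and 1559 and 1441 with Valproate. They were 682 and 613 with Bromosporine and 634 and 971 with OICR, while Dcn was at 0 in all 22 libraries. Col1a1 rose with DZNep (327 and 228, against 24 in both NC libraries) and fell with Bromosporine (7 and 6). Thy1 rose with DZNep (66 and 64, against 12 and 11) and Valproate (358 and 303), and Lum, listed at 0 in NC, rose with Valproate (197 and 331). Their part in the changes of Utf1 and Otx2 was not tested.

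The genes most like a factor were taken as the 2 with the highest Pearson r over the 22 libraries, after centring within each replicate number, among 12582 or 12583 tested genes above 0 in all libraries with a mean of at least 100. These correlations describe the pattern and carry no p, and libraries of a group are not independent points. Adamts7 (0.927) and Prr7 (0.931) were most like Utf1. Adamts7 had 185 and 198 in NC, 671 and 672 with DZNep, 531 and 607 with Bromosporine, 507 and 543 with OICR and 533 and 763 with Valproate, and 243 or less in the other groups. The libraries of these 4 compounds were the highest for both genes, but Adamts7 was picked for its likeness to Utf1 in these same libraries.

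Etv5 (0.876) and Wdr5 (0.845) were most like Pou5f1, and OICR was the highest group for Etv5 (27771 and 29528, against 19257 and 18790 in NC). Fiz1 (0.913) and Zbtb8a (0.881) were most like Otx2, and both were lowest with Valproate replicate 1. Mboat2 (0.871) followed Pou3f1, with 655 and 626 in Valproate against 263 and 317 in NC. Nap1l1 (0.865) was most like Lin28a, Adamts8 (0.882) most like Zic2, Asxl1 (0.854) most like Sall4 and Hoxc12 (0.828) most like Sox2. For Lin28b and Fgf5 the highest values were 0.765 (Eif2s3y) and 0.559 (Hnrnpa0).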

How the data were processed

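The deposited table holds scores, here read counts per gene that the authors had normalised and rounded to whole numbers. Per the labels, the reads were handled with bcl2fastq, Bowtie2 2.2.5 and RSEM on mm10. The study's methods, which do not mention the compounds, name EDASeq with full normalisation, a step that forces a common distribution on the libraries and hides depth and shifts shared by most genes. Every one of the 22 columns carried the title of a sample, and 0 were left over. The second table held the authors' means of each group and was not used.

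The test was limma 3.58.1 (R 4.3.3) on log2(value + 1). Genes reaching at least 10 in at least 2 libraries (17275 of 18487) were fitted with 11 group means (11 residual degrees of freedom, eBayes with trend), and p-values, all two-sided, were adjusted by Benjamini-Hochberg within each contrast. The authors' DESeq2 needs raw counts and was not run. The fit was tested on simulated data that held no shift shared by a replicate number, so that test does not cover such a shift. Fold changes of low genes on this scale depend on the added 1. They can lie above or below the fold of the group means, as they did for Fgf5.

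All 10 factors were reported, with full statistics for called changes and for the largest change of each. From other lists, called genes were named, at most 3 a compound by size of change. The factors and lists were chosen with earlier results of these data known. Positions and 31-base matches came from GENCODE M21 (mm10). Figures were drawn with matplotlib 3.10.9 in Python 3.11.15. Alternatives were a pseudocount of 10, no filter, a replicate block, median-ratio rescaling, the mean of the other groups as reference, adjustment over all 10 contrasts, fits of the compound and NC libraries only, and leaving out each library.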

Additional observations from a re-analysis of the deposited data

How the results depend on the processing

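Of the alternatives run, none turned the direction of a called change. The rise of Utf1 with Bromosporine passed under all 11, that with DZNep under 10, that with Valproate under 9 and that with OICR under 6, and the fall of Otx2 with Valproate under 4. The number of factors called with OICR went from 1 to 0 in the fit of OICR and NC only and with the other groups as reference, and lay between 0 and 1 with a library left out. DZNep went from 1 to 0 in the fit of DZNep and NC only. Valproate had 1 in place of 2 with adjustment over all 10 contrasts, against the mean of the other groups, with no filter and with median-ratio rescaling, 0 in the fit of Valproate and NC only, and 1 to 2 with a library left out. Chaetocin and MS023 had 1 in place of 0 against the mean of the other groups, in both cases Utf1, with log2 differences of -1.12 and -1.08. That mean includes the groups in which Utf1 rose, which lowers every Utf1 change measured from it. It gave 0.93 for OICR and 0.854 for Valproate. Against NC, Utf1 changed by -0.474 with Chaetocin and -0.437 with MS023 (limma adjusted p 0.803 and 0.398). Over all genes this reference gave 14 calls for Chaetocin and 449 for MS023.

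The main fit did not take the replicate numbers as pairs, since the study's methods name no block. Yet 51 of 55 pairs of groups had a correlation of deviations over 0.1, and the lowest was 0.053. Of 22 libraries, 20 correlated better on average with their own number. The main fit counts a difference shared by a number as spread. With the block, limma adjusted p was 0.00729 for Sox2 with Valproate, 0.0204 for Zic2 with MS023 and 0.0347 for Pou5f1 with OICR, all below the fold threshold. It stayed above 0.05 for the largest changes of Sall4, Fgf5, Pou3f1, Lin28a and Lin28b. With the replicate block, 7 factors were past the F test in place of 2 (Utf1, Pou5f1, Lin28a, Otx2, Pou3f1, Sox2 and Zic2), but so were 65.9% of all tested genes. With Valproate 3 factors were called, Lin28a (adjusted p 0.0187) being added to Utf1 and Otx2, and no count changed for the other 9 compounds. Over all genes, the block gave 1189 calls for Bromosporine in place of 577, 1487 for Valproate in place of 912, 484 for MS023 in place of 168, 274 for OICR in place of 67, 217 for IOX1 in place of 20, 35 for Chaetocin in place of 3 and 11 for UNC0379 in place of 0. In fits of the compound and NC only, the counts were 97 for DZNep in place of 1970, 75 for Valproate and 128 for Bromosporine. The F test was past for 1 factor with median-ratio rescaling and for 1 to 3 with a library left out.

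Lin28b with DZNep turned from -0.164 to 0.002 without NC replicate 2, and its range with a library left out was -0.329 to 0.002. The formative minus core change ranged from -0.869 to 0.505 for Chaetocin, -0.502 to 0.734 for IOX1 and -0.666 to 0.487 for OICR with a library left out. It was -0.477 for DZNep with Utf1 added to the core and both Lin28 genes to the formative markers. Depth is unknown, and no detection limit could be set for Fgf5 or other genes at 0.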
